A study of Mus musculus with 6 samples.

Results

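The genes described here are 10 genes of stress granules and of diseases with protein inclusions: *Tia1*, *Tial1*, *G3bp1*, *G3bp2*, *Caprin1*, *Atxn2*, *Vcp*, *Sqstm1*, *Ubqln2* and *Optn*. They were chosen by name, with earlier results of these data known. All 10 of the 46078 genes in the count table that carry these names passed the filter on low counts, which left 14828 genes to be tested. RNA was measured in C2C12 cells, an immortalised mouse myoblast line that leaves the cell cycle and fuses into myotubes when serum is reduced. The libraries labelled *Hnrnpa2b1* KO came from cells edited with CRISPR-Cas9, and the other libraries are labelled WT. In its Western blot of the knockout, the paper shows beside it C2C12 cells given a guide RNA of scrambled sequence. Whether the WT libraries came from such cells is not stated in the sources used here. There were 3 libraries of each genotype, and all 6 cultures had differentiated for 2 days after serum withdrawal, with an ITS supplement. The total RNA was depleted of ribosomal RNA. Per the methods, clones of either genotype were isolated separately, and the labels do not say which clone gave which library, so that p-values measure the spread between these samples. The comparison asks how the RNA of the 10 genes differs when Hnrnpa2b1, an RNA-binding protein mutated in inclusion body myopathy, has been targeted.

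Stress granules are condensates of stalled messenger RNA and protein that form in the cytoplasm when translation initiation is blocked. G3bp1 and G3bp2 are the RNA-binding scaffolds on which they assemble, Caprin1 binds G3bp and favours assembly, and Tia1, Tial1 and Atxn2 are RNA-binding components. Vcp is an ATPase that extracts ubiquitinated proteins and takes part in granule clearance, while Sqstm1, Optn and Ubqln2 carry ubiquitinated cargo to autophagosomes or the proteasome. Mutations in several of these genes cause inclusion body myopathy, distal myopathy or amyotrophic lateral sclerosis (ALS).

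The sequences shown are those before the start sites of *G3bp1*, the single gene of the 10 that passed the test in counts, and of *Caprin1* and *Optn*, the other 2 whose 95% interval in counts left out 0. They are given so that the stretches before these 3 genes can be compared in base composition. They come from RefSeq, were read 5′ to 3′ on the strand of the gene on GRCm38.p6, start 250 bases before the RefSeq start, and stop where the first annotated exon of any gene begins. Capitals mark the letters of a CCAAT box (CCAAT), of a GC box (GGGCGG) and of a TATA box (TATAAA), on either strand.
G3bp1, chr11:55469502-55469684, plus strand: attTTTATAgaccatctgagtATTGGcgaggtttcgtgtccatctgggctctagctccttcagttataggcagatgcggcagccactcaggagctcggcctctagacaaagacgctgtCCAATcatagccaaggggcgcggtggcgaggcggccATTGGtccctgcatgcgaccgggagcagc
Caprin1, chr2:103797105-103797328, minus strand: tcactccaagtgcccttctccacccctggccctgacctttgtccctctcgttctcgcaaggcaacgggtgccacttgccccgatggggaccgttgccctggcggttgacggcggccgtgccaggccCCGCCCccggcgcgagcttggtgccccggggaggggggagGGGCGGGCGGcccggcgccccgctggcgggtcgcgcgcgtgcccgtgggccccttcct
Optn, chr2:5064118-5064367, minus strand: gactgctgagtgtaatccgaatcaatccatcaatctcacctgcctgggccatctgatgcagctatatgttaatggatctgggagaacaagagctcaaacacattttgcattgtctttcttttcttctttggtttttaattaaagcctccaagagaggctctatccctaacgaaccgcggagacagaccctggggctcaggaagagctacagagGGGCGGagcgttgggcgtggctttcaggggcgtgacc

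The *Caprin1* stretch was the richest in G and C, at 75.9%, against 57.4% before *G3bp1* and 50% before *Optn*. It held GGGCGG 3 times, 2 of these overlapping, and neither of the other motifs. It lies outside exons but inside the deposited span of *Caprin1*, since some annotated transcripts start further upstream than the RefSeq start. The *G3bp1* stretch held CCAAT 3 times and TATAAA 1 time, and the *Optn* stretch held GGGCGG 1 time. Of the 10 genes, 9 were matched in the table of RefSeq promoters used here, and the promoter of *Ubqln2* was not analysed here. In the whole 250 bases, these 9 genes had 13 promoters in all, since some have several starts. Of the 13, 3 held CCAAT (those of *G3bp1* and *Vcp* and 1 of *G3bp2*), 8 held GGGCGG and 3 held TATAAA (those of *G3bp1* and *Vcp* and 1 of *Atxn2*). Among 32851 promoters of that length, 33.9% held CCAAT, 32.7% held GGGCGG and 12.4% held TATAAA. A match of these letters is a description and not a binding site.

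The libraries held between 33605258 and 40558740 counts. *Hnrnpa2b1* itself, the targeted gene, was measured as CPM, counts relative to the library's total after scaling with edgeR's TMM factors. The KO libraries stood at 159, 195 and 249 CPM, in the order of their numbers, and the WT libraries at 225, 229 and 252 CPM. Its log2 fold change, KO over WT, was -0.23 (SE 0.18, edgeR adjusted p = 0.381), so its RNA level does not separate the genotypes. That value was -0.092 without KO1 and -0.41 without KO3. In TPM, values scaled by gene length, *Hnrnpa2b1* was at 29.5, 37.96 and 59.9 in KO and at 56.6, 57.4 and 58.0 in WT, with KO3 above every WT library (log2 difference -0.49, limma adjusted p = 0.171). These counts do not measure the protein, and the edited allele was not checked in reads here, so KO and WT are used as the labels give them. Per the methods, the knockout of the KO clones had been established at the protein level, by immunofluorescence and Western blot. All 8 skeletal muscle markers were detected, with a summed level of 5341 to 12073 CPM in KO and 10603 to 13081 CPM in WT. *Myh3*, an embryonic myosin, held the largest part of the WT sum, at 4958 ± 741 CPM (SD, n = 3). Of the 8 markers, 2 were called, both higher in KO: *Myod1*, a myogenic transcription factor (log2 fold change 0.99, edgeR adjusted p = 0.0141), and *Cdh15*, a muscle cadherin (0.70, edgeR adjusted p = 0.0258). Without being called, *Actc1*, cardiac actin, at -1.16 (edgeR adjusted p = 0.0890), and *Myh3*, at -1.18 (edgeR adjusted p = 0.126), were below WT in every KO library. *Ckm*, muscle creatine kinase, was at -0.83 and overlapped (edgeR adjusted p = 0.170). The remaining markers overlapped too, *Des* at -0.34, *Myog* at 0.06 and *Mymk* at 0.06 (edgeR adjusted p of 0.474, 0.863 and 0.929). The highest KO sum was that of KO1, 12073 CPM, while KO2 was at 5977 and KO3 at 5341. The 4 fibro-adipogenic markers summed to 130 to 310 CPM in KO and 52.9 to 68.7 in WT, and all 3 that were tested (*Ly6a*, *Cd34* and *Pdgfra*) were higher in KO. The neuronal list summed to 6.57 to 23.7 CPM in KO and 2.80 to 7.13 in WT, of which *Snap25* and *Rbfox3* had at most 3 counts everywhere. Its 2 tested genes went opposite ways, *Stmn2* higher by 1.96 on the log2 scale (edgeR adjusted p = 0.0367) and *Syt1* at -2.14 (edgeR adjusted p = 0.0350). Immune markers summed to at most 3.67 CPM in any library. Endothelial markers summed to 0.20 to 0.73 CPM in KO and 1.19 to 2.05 CPM in WT, without overlap, and of the 2 tested *Kdr* was called lower, at -2.15 (edgeR adjusted p = 0.0363), while *Tek* was not called. The part that these markers play in the results below was not tested. In bulk RNA, fewer cells of a type and less RNA per cell cannot be told apart.

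The KO libraries had less *G3bp1* RNA, by 31.7%, and the other 9 genes did not pass the test. The *G3bp1* call was made in 7 of 13 settings of the count test. It was not made with the replicate number as a block (edgeR adjusted p = 0.0573), although these numbers did not pair the samples. Nor was it made with the regional offset described below (log2 fold change -0.28, edgeR adjusted p = 0.176). *Caprin1* lay higher and *Optn* lower in every KO library without passing it. In edgeR's quasi-likelihood test, 1 of the 10 genes was called at an adjusted p under 0.05, against 22.7% of the 14828 genes tested. By direction, 0 of 10 were called higher, where 12.1% of all genes were, and 1 of 10 lower, where 10.6% were. At an unadjusted p under 0.05 there were 3 genes, *G3bp1*, *Optn* and *Caprin1*, of which 1 was higher, beside 39% of all genes. DESeq2 also called 0 higher and 1 lower, beside 24.3% of the genes to which it gave an adjusted p. The libraries of the genotypes were apart, without overlap, for 4 of the 10 genes (*G3bp1*, *G3bp2*, *Caprin1* and *Optn*), beside 44.3% of all genes. The median log2 fold change of the 10 genes was 0.06 and that of all genes 0.03. Without the filter on low counts, edgeR called 2 of the 10 genes, beside 15.0% of the 30252 genes then tested. Those include genes of low count that the filter removed, so this share is not like the 22.7%.

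**Figure D1:**
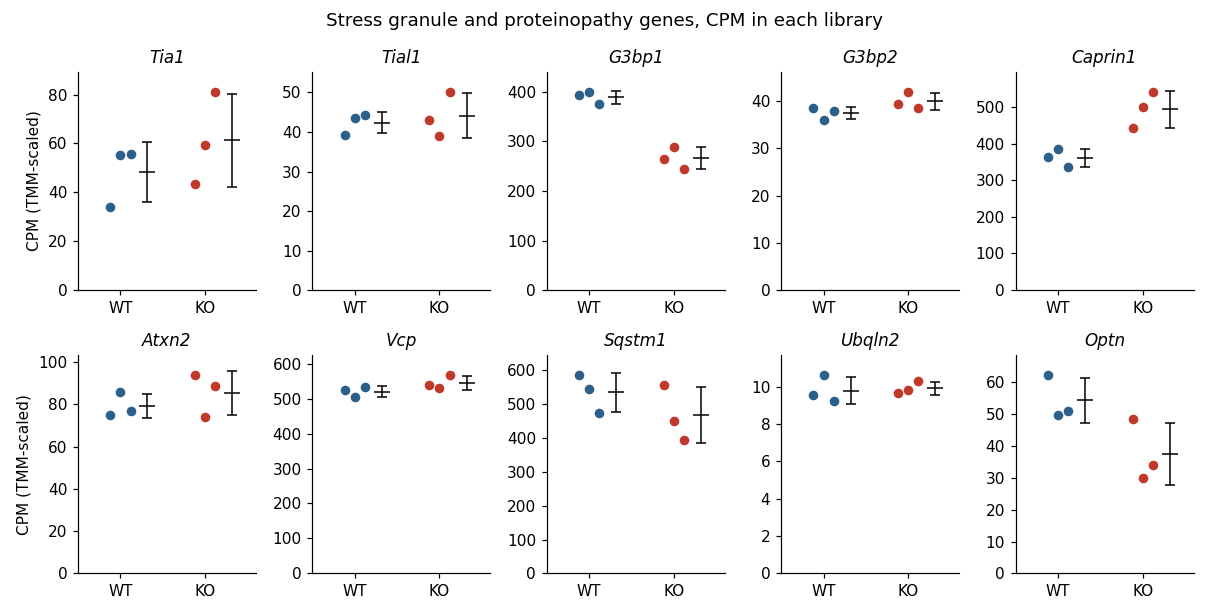
CPM (TMM-scaled) of the 10 genes in each library, from 0, with 3 WT libraries in blue and 3 KO libraries in red, in the order of their numbers. Black marks give the mean and the SD of each genotype. All 3 KO libraries lie below the WT libraries for *G3bp1* (244 to 288 against 375 to 400 CPM) and for *Optn*, and above them for *Caprin1*.

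*G3bp1*, the stress granule scaffold, stood at 266, 288 and 244 CPM in the KO libraries, in the order of their numbers as for each gene below, and at 393, 400 and 375 CPM in the WT libraries. The genotypes were far apart compared with their spread, at 266 ± 22.2 against 389 ± 13.2 CPM (SD, n = 3 each). The log2 fold change was -0.55 (SE 0.14, 95% interval -0.86 to -0.24), with an edgeR adjusted p of 0.0258. The gene spans chr11:55469685-55504838 on the plus strand of GRCm38, the build of all positions given here. It shares 2.32% of its windows of 100 bases with the pseudogene *Gm5913*, which had 14 to 34 counts per library, against at least 9490 for *G3bp1*.

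*G3bp2*, its paralog on chr5:92052146-92083719, did not fall with it. It was at 39.3, 41.9 and 38.6 CPM in KO and at 38.5, 35.9 and 37.9 CPM in WT. The lowest KO library, at 38.6, was barely above the highest WT library, at 38.5. The log2 fold change was 0.09 (95% interval -0.17 to 0.36, edgeR adjusted p = 0.572), an interval that leaves out a fall as large as that of *G3bp1*. Of its exon bases, 23.7% also lie in exons of *Gm26582*, a non-coding gene on the opposite strand, and the sources used here do not state whether the counting used strand. *Gm26582* itself had 10 to 24 counts per library.

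*Caprin1*, the G3bp partner, was at 441, 499 and 541 CPM in KO and at 364, 384 and 336 CPM in WT. Every KO library was above every WT library, with a mean 36.7% higher by the fitted fold change. Its log2 fold change was 0.45 (SE 0.15, 95% interval 0.11 to 0.80) and its edgeR adjusted p was 0.0633, above the threshold. The gene lies at chr2:103762941-103797649 on the minus strand, and no window of 100 bases in its transcripts occurs in another gene.

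The remaining RNA-binding components overlapped between the genotypes. *Tia1*, a splicing regulator and translational repressor found in granules, was at 43.4, 59.2 and 81.2 CPM in KO and at 34.2, 55.2 and 55.8 CPM in WT. It was the most variable of the 10 genes, with a coefficient of variation of 31.0% in KO and 25.5% in WT, and its log2 fold change of 0.34 had a 95% interval from -0.27 to 0.96. That value was 0.09 without KO3, 0.13 without WT1 and 0.53 without KO1. Its paralog *Tial1* was at 43.0, 39.0 and 50.2 CPM in KO and at 39.2, 43.6 and 44.2 CPM in WT, a log2 fold change of 0.06 (-0.26 to 0.37). *Atxn2*, a regulator of translation and RNA stability, was at 94.0, 73.9 and 88.5 CPM in KO and at 75.0, 85.7 and 77.0 CPM in WT, a log2 fold change of 0.11 (-0.20 to 0.42) that was 0.03 without KO1 and 0.21 without KO2. *Tia1* lies at chr6:86404219-86433403, *Tial1* at chr7:128439777-128461717 and *Atxn2* at chr5:121711337-121816493, so that no paralog pair shares a stretch of 10 Mb. The edgeR adjusted p-values were 0.378 for *Tia1*, 0.781 for *Tial1* and 0.577 for *Atxn2*.

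Of the 4 genes of protein quality control, *Optn* separated the genotypes. Optineurin, an autophagy receptor mutated in ALS, was at 48.6, 29.8 and 34.2 CPM in KO and at 62.3, 49.7 and 51.0 CPM in WT. All KO libraries were below all WT libraries, although KO1, at 48.6, came close to WT2, at 49.7. The log2 fold change was -0.53 (SE 0.20, 95% interval -0.99 to -0.07), nearly that of *G3bp1*, but the spread was wider and the edgeR adjusted p was 0.0884. The coefficient of variation was 26.2% in KO and 12.8% in WT, against 8.33% and 3.38% for *G3bp1*. *Optn* lies at chr2:5020642-5064051 on the minus strand, and no window of 100 bases is shared with another gene.

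*Vcp*, the ATPase mutated in inclusion body myopathy with Paget disease and frontotemporal dementia, was at 539, 530 and 568 CPM in KO and at 524, 503 and 533 CPM in WT. It varied little, with a coefficient of variation of 3.66% in KO and 2.92% in WT, and its log2 fold change of 0.07 had a 95% interval from -0.25 to 0.39. The gene lies at chr4:42979963-43000507. A share of 36.3% of its windows of 100 bases also occurs in *Vcp-rs*, a copy of the gene, or in *1700022I11Rik*, so that its reads could be divided among them. *Vcp-rs* had 286 to 370 counts per library and a log2 fold change of 0.04.

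*Sqstm1*, which encodes the autophagy receptor p62, was at 558, 451 and 395 CPM in KO and at 587, 546 and 474 CPM in WT. The genotypes overlapped, with a log2 fold change of -0.19 (95% interval -0.61 to 0.22) that was -0.35 without KO1 and -0.081 without KO3. It lies at chr11:50199366-50210827, within 10 Mb of *G3bp1*. Of its exon bases, 17.3% lie in exons of *Mrnip* on the opposite strand, which had 42 to 93 counts per library, against at least 16160 for *Sqstm1*. *Ubqln2*, the ubiquilin mutated in X-linked ALS, was at 9.65, 9.82 and 10.3 CPM in KO and at 9.54, 10.6 and 9.22 CPM in WT, a log2 fold change of 0.02 (-0.34 to 0.38). It lies at chrX:153498227-153501570. It had the fewest counts, 330 in the lowest library, with an exact Poisson 95% interval of 295 to 368 that covers counting error only. The edgeR adjusted p-values were 0.742 for *Vcp*, 0.464 for *Sqstm1* and 0.937 for *Ubqln2*, and the intervals of *Vcp* and *Ubqln2* leave out a change as large as that of *G3bp1*.

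The TPM values, a share of a library's transcripts, take gene length into account and allow levels of different genes to be compared. In WT, *Sqstm1* (178 ± 27.5 TPM) and *Vcp* (131 ± 4.47) were highest, followed by *Caprin1* (70.5 ± 9.54) and *G3bp1* (42.2 ± 3.84; SD, n = 3 each). *Optn* (16.6 ± 2.65 TPM), *Atxn2* (16.0 ± 0.95), *G3bp2* (14.4 ± 0.92), *Tia1* (10.5 ± 3.08) and *Tial1* (10.3 ± 0.70) came next, and each of these neighbours overlapped the next in WT. *Ubqln2* was lowest, at 2.01 ± 0.28 TPM, and overlapped none. In KO, *Sqstm1* (151 ± 13.1 TPM) and *Vcp* (139 ± 22.1) overlapped. *G3bp1* kept its rank of 4, at 28.4 ± 2.05 TPM, while *Optn*, at 11.5 ± 2.44 TPM, moved from rank 5 to rank 8. In KO, *Optn* overlapped *Tia1* and *Tial1*, so that its order among these was not resolved.

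The TPM values gave the same single call. In limma's test on log2(TPM + 1), 1 of the 10 genes passed an adjusted p of 0.05, against 20.5% of the 11691 genes tested. *G3bp1* was at 26.1, 29.3 and 29.9 TPM in KO and at 42.9, 45.6 and 38.0 TPM in WT, a difference of -0.55 (limma adjusted p = 0.0287). Its call was made in 4 of 10 settings of the TPM test, and not with the replicate block (limma adjusted p = 0.0625). *Optn* was at 13.5, 8.80 and 12.2 TPM in KO and at 19.6, 15.7 and 14.5 TPM in WT, a difference of -0.50 (limma adjusted p = 0.0942). For *Caprin1* the measures differed: its TPM of 72.6, 79.4 and 110 in KO overlapped the 72.6, 78.8 and 60.0 of WT, and the difference was 0.29 (95% interval -0.15 to 0.73, limma adjusted p = 0.309). That difference was 0.12 without KO3 and 0.41 without KO1. For *Atxn2*, in contrast, the KO libraries, at 17.3, 16.9 and 20.04 TPM, lay above the WT libraries, at 16.3, 16.8 and 15.0, and overlapped them in CPM (TPM difference 0.16, 95% interval -0.15 to 0.48). *G3bp2* was at 15.7, 17.1 and 18.95 TPM in KO and at 14.5, 15.3 and 13.5 in WT, again without overlap. Its difference of 0.24 (-0.08 to 0.56) had a limma adjusted p of 0.254. The TPM, unlike the counts, were not scaled with TMM factors, which were 0.98, 1.08 and 1.07 in KO and 0.96, 0.98 and 0.95 in WT. What this added to the small separations of *Atxn2* and *G3bp2* in TPM was not tested.

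The other 5 genes overlapped in TPM as they did in CPM. *Sqstm1* was at 166, 140 and 148 TPM in KO and at 198, 189 and 146 in WT, a difference of -0.22 (95% interval -0.61 to 0.17). *Vcp* was at 125, 128 and 165 TPM in KO and at 134, 134 and 126 in WT, a difference of 0.08 (-0.29 to 0.44). In TPM, KO3 stood above the other KO libraries for *Vcp*, *Tia1*, *Tial1*, *Caprin1*, *Atxn2*, *G3bp1*, *G3bp2* and *Ubqln2*, which in CPM it did not for *G3bp1*, *G3bp2* and *Atxn2*. *Tia1* was at 8.16, 11.8 and 19.3 TPM in KO and at 7.53, 13.7 and 10.3 in WT, a difference of 0.25 (-0.43 to 0.92). *Tial1* was at 8.69, 7.89 and 12.1 TPM in KO and at 9.71, 11.1 and 10.1 in WT, a difference of -0.12 (-0.51 to 0.28), the opposite sign to that in counts. This difference was -0.28 without KO3 and -0.0022 without KO2. *Ubqln2* was at 1.79, 1.87 and 2.38 TPM in KO and at 2.00, 2.30 and 1.74 in WT, a difference of -0.00026 (-0.35 to 0.35).

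**Figure D2:**
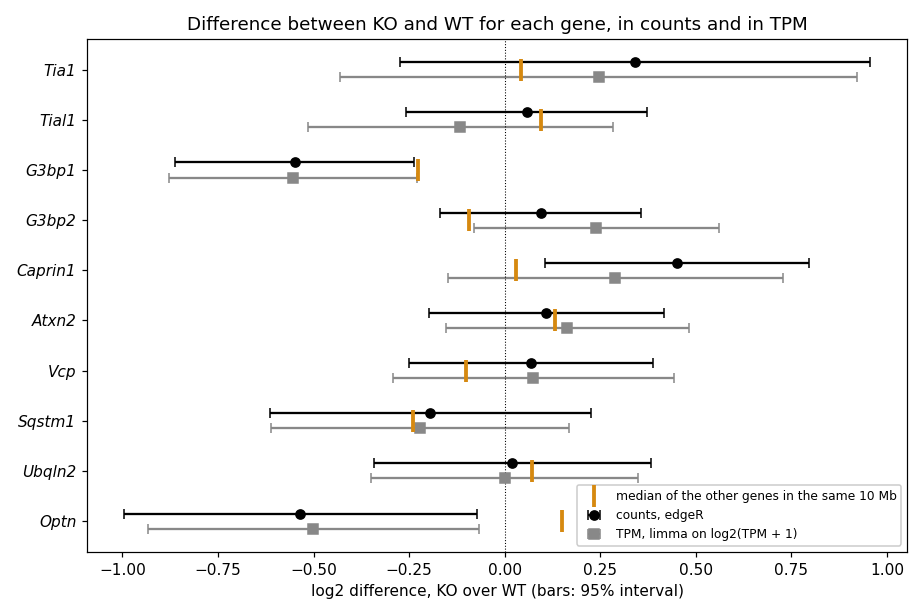
Log2 difference, KO over WT, of each gene in counts (black circles, edgeR) and in TPM (grey squares, limma), with 95% intervals, and the median log2 fold change of the other genes in the same 10 Mb (orange bars). The intervals of *G3bp1* and *Optn* lie below 0 in both measures, that of *Caprin1* lies above 0 in counts alone, and the orange bar of *G3bp1* is at -0.23.

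Within the paralog pair, the balance moved from *G3bp1* towards *G3bp2*. *G3bp1* made up 62.4, 63.1 and 61.2% of the summed TPM of both in KO and 74.7, 74.9 and 73.8% in WT. The libraries did not overlap, and the difference of -12.2 percentage points was large beside SDs of 0.98 and 0.56. An exact two-sided permutation test gave p = 0.1, the smallest that 3 against 3 libraries allow. In counts, where *G3bp2* was low relative to its TPM, the share was 86.9 ± 0.50% in KO and 91.2 ± 0.49% in WT, a difference of -4.30 points.

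In TPM, the other paralog shares differed by fewer points, 6.73 for *Tia1* and 0.92 for *Ubqln2*. In counts that of *Tia1* differed by 4.70 points, about as many as that of *G3bp1*. Points are not a like measure here, since the mean WT shares in TPM were 74.5% (*G3bp1*), 49.8% (*Tia1*) and 3.22% (*Ubqln2*). *Tia1* made up 48.4, 59.8 and 61.4% of the summed TPM of *Tia1* and *Tial1* in KO and 43.7, 55.2 and 50.6% in WT, which overlapped (exact permutation p = 0.3). Its difference was 10.8 points without KO1 and 3.66 without WT1. *Ubqln2* made up 4.05, 4.05 and 4.33% of the summed TPM of the ubiquilins *Ubqln1*, *Ubqln2* and *Ubqln4* in KO and 3.03, 3.46 and 3.17% in WT, which did not overlap (exact permutation p = 0.1). The mean of *Ubqln2* itself was 2.01 TPM in both genotypes, while *Ubqln4* was at 11.1 ± 1.16 TPM in KO and 18.6 ± 2.05 in WT (difference -0.69, limma adjusted p = 0.0155). *Ubqln1*, the most abundant of them, was at 35.4 ± 5.58 TPM in KO and 41.8 ± 5.26 in WT (limma adjusted p = 0.336). These are 3 shares, each with the same smallest p.

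A ratio of 2 genes within a library does not depend on how libraries are scaled. The ratio of *G3bp1* to *Caprin1*, chosen after their values were seen and given as a description, was 0.60, 0.58 and 0.45 in counts in KO and 1.08, 1.04 and 1.12 in WT. In TPM its mean was 0.33 in KO and 0.60 in WT. Thus *G3bp1* had about as many counts as *Caprin1* in each WT library and fewer in each KO library.

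**Figure D3:**
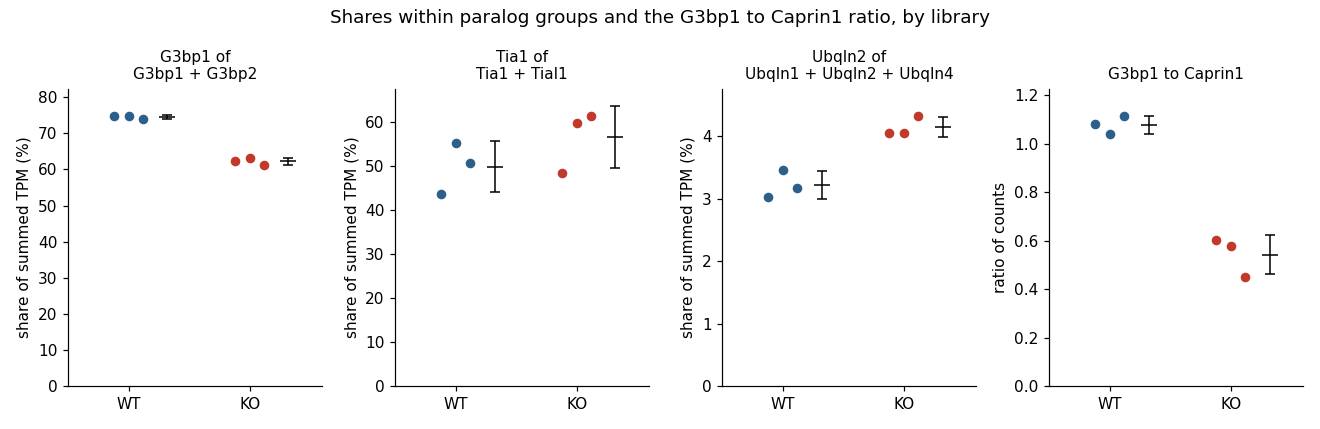
Share of the summed TPM (%) of *G3bp1* in its paralog pair, of *Tia1* in its pair and of *Ubqln2* among 3 ubiquilins, and the ratio of *G3bp1* to *Caprin1* in counts, in each WT (blue) and KO (red) library, with the mean and SD of each genotype in black. The share of *G3bp1* is 61.2 to 63.1% in KO and 73.8 to 74.9% in WT.

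Most genes around *G3bp1* had log2 fold changes below 0. *G3bp1* and *Sqstm1* both lie on chromosome 11 between 50 and 60 Mb, a stretch in which the 124 other genes tested had a median log2 fold change of -0.23 beside *G3bp1*, and 75% of them were below 0, against 47.7% of all genes tested. Of the 124, 27 were called lower and 11 higher. Relative to the WT mean, the median of that stretch lay at -0.16, -0.28 and -0.33 in the KO libraries, in the order of their numbers, and between -0.02 and 0.01 in the WT libraries. *G3bp1* was lower than this median by 0.32, while *Sqstm1*, at -0.19, was close to its own median of -0.24. An alternative fit removed, as an offset, the median of each stretch with the gene itself included, taken relative to the median of all genes, which was -0.27 for the stretch of *G3bp1*. That is the fit in which *G3bp1* stood at -0.28. *Optn* and *Caprin1* stood apart from their neighbours: *Optn* lay -0.69 from its stretch, whose median was 0.15 over 30 genes, and *Caprin1* lay 0.42 from its stretch, whose median was 0.03 over 41 genes. What moved the stretch was not tested.

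Calls were gained or lost when 1 library was left out, while the log2 fold changes of *G3bp1*, *Caprin1* and *Optn* kept their sign. *G3bp1* was called in 7 of 13 settings of the count test, always with a negative sign and with log2 fold changes from -0.61 to -0.28. It lost the call in edgeR without KO3 (adjusted p = 0.0638), without WT1 (0.110), without WT2 (0.0713) or without WT3 (0.0694), while its log2 fold change stayed between -0.61 and -0.49. In the whole table the number of genes called was 2088 without KO3, 933 without WT1, 2100 without WT2 and 1288 without WT3, against 3361. Without KO1, the library whose muscle marker sum was nearest to WT, 3 of the 10 genes were called, beside 30.6% of all genes (4712). *Caprin1* was then at 0.52 (edgeR adjusted p = 0.0338), *Optn* at -0.77 (0.00939) and *G3bp1* at -0.55 (0.0294). In TPM, the call of *G3bp1* held without KO1 (limma adjusted p = 0.0465) and was lost without KO2, KO3, WT1, WT2 or WT3 (0.0541 to 0.130). *Optn* was called in 2 of 13 settings of the count test and *Caprin1* in 2 of 13, each with the same sign in all 13.

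**Figure D4:**
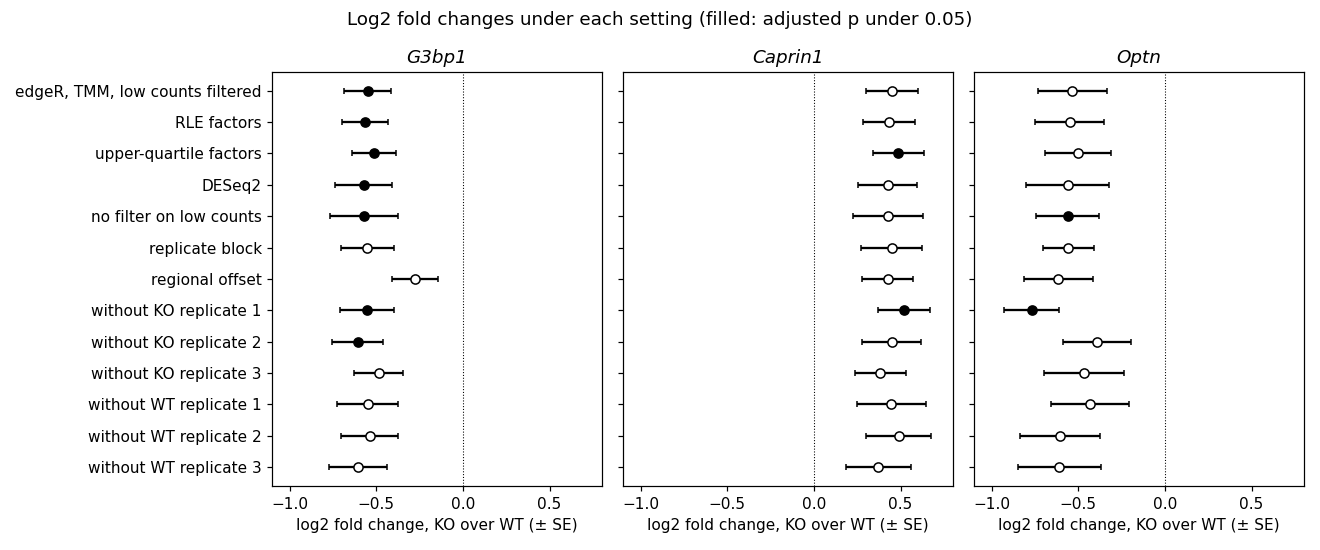
Log2 fold change, KO over WT, with its standard error for *G3bp1*, *Caprin1* and *Optn* under each of 13 settings of the count test. Filled circles have an adjusted p under 0.05, and no circle crosses 0.

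Genes that act beside these 10 were read from 4 lists with 97 genes in all, each of which was tested. Of 27 other stress granule genes, 1 rose and 2 fell, with a median log2 fold change of -0.08. *Fxr2*, a paralog of the fragile X protein, fell to 153, 131 and 115 CPM in KO from 281, 270 and 246 in WT (log2 fold change -1.0, edgeR adjusted p = 0.00518). *Pabpc4*, a cytoplasmic poly(A)-binding protein, fell by 0.79 on the log2 scale (edgeR adjusted p = 0.00587), and *Stau1*, which binds double-stranded RNA, rose by 0.45 (edgeR adjusted p = 0.0257). Both were outside the range of the other genotype in every library. The calls of *Fxr2* and *Pabpc4* were made in all 13 settings of the count test and that of *Stau1* in 5, and with the regional offset *Stau1* was at -0.066.

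Of 24 other genes of ALS and inclusion body myopathy, 3 rose and 1 fell, with a median of 0.07. *C9orf72*, listed under the older symbol *3110043O21Rik*, fell to 27.7, 24.99 and 29.9 CPM in KO from 57.9, 52.9 and 51.3 in WT (log2 fold change -0.97, edgeR adjusted p = 0.00331). *Kif5a*, a kinesin heavy chain, rose by 2.68 on the log2 scale from at most 0.52 CPM in WT (edgeR adjusted p = 0.0121). *Fig4*, a phosphoinositide phosphatase, rose by 0.49 (edgeR adjusted p = 0.0216), and *Hnrnpa1*, a paralog of the targeted gene named because the calls were few, by 0.81 (edgeR adjusted p = 0.0268). The call of *3110043O21Rik* was made in all 13 settings, that of *Kif5a* in 11, that of *Hnrnpa1* in 8 and that of *Fig4* in 6. Over the settings, the log2 fold change of *3110043O21Rik* ranged from -1.04 to -0.55.

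Of 23 autophagy genes, 0 rose and 1 fell in edgeR's test, with a median of -0.13. At an unadjusted p under 0.05 there were 0 higher and 5 lower (21.7% of the list), near the 18.5% of all genes that were lower by that rule. DESeq2 called 0 higher and 2 lower, where 11.8% of its genes were lower. *Gabarapl1*, to whose family *Optn* and *Sqstm1* bind, fell to 59.3, 77.5 and 58.6 CPM in KO from 114, 96.7 and 83.3 in WT (log2 fold change -0.59, edgeR adjusted p = 0.0419). It was called in 6 of 13 settings, and not with the replicate block, with the regional offset or without KO1, KO3, WT1, WT2 or WT3. Of 23 cofactors of Vcp and ubiquilins, 1 rose and 3 fell, with a median of -0.17. *Ubxn1* fell to 183, 173 and 130 CPM in KO from 372, 301 and 335 in WT (log2 fold change -1.05, edgeR adjusted p = 0.00693). *Ubqln4* fell by 0.75 on the log2 scale (edgeR adjusted p = 0.0168), *Atxn3*, a deubiquitinase that binds Vcp, rose by 0.89 (edgeR adjusted p = 0.0106), and *Faf1*, named because the calls were few, fell by 0.52 (edgeR adjusted p = 0.0247). The call of *Ubxn1* was made in all 13 settings, those of *Ubqln4* and *Atxn3* in 10 each and that of *Faf1* in 8. *Atxn3* lost its call with the regional offset and without WT1 or WT3. Its log2 fold change ranged from 0.49 to 1.05 over the settings. The share called was 11.1%, 16.7%, 4.35% and 17.4% in the lists in this order, beside 22.7% of all genes in edgeR's test. Whether a list lay below or above all genes depended on the rule and the setting. Of the Vcp list, 43.5% passed an unadjusted p under 0.05, beside 39% of all genes, 12 of 23 did not overlap, beside 44.3%, and DESeq2 called 6 of 23, beside 24.3%. Without a filter, edgeR called 5 of 24 ALS and inclusion body myopathy genes, 4 of 23 autophagy genes and 6 of 23 of the Vcp list. This stood beside 15.0% of the 30252 genes then tested. That share includes genes of low count, while every gene of the lists passed the filter, so it is not a like comparison. With the regional offset, 45.8% of the ALS and inclusion body myopathy list passed an unadjusted p under 0.05, beside 36.8% of all genes.

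**Figure D5:**
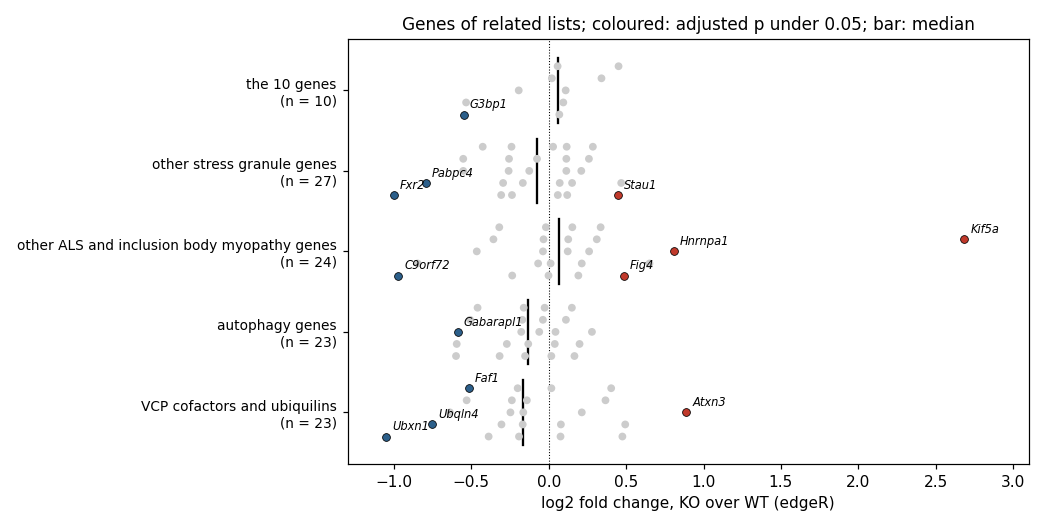
Log2 fold change, KO over WT (edgeR), of the 10 genes and of the genes in 4 related lists. Each dot is a gene, red (higher) or blue (lower) with its name where the adjusted p was under 0.05 and grey otherwise, and black bars are medians, from -0.17 to 0.07 in the 4 lists.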

How the data were processed

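The measurements were RNA levels in 6 C2C12 cultures, 3 of them *Hnrnpa2b1* KO and 3 WT. After STAR alignment, the authors deposited raw counts per gene of all 6 libraries, with no normalization, and StringTie TPM values of each library. The notes of the submitters name FastQC, Trim Galore, STAR, featureCounts, StringTie and Salmon; the versions of the aligner and the counter and the use of strand are not given in the sources used here. The sources name different genome builds, and 99.86% of 45137 genes shared with GENCODE M21 overlap its position on GRCm38, so that positions are given on GRCm38. The number of count columns left unused was 0.

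Counts were scaled with TMM factors, filtered with filterByExpr and compared by genotype alone in edgeR 4.0.16 (R 4.3.3; quasi-likelihood test, two-sided), and p-values were adjusted by Benjamini-Hochberg over all genes at a threshold of 0.05. Where several rows of a library bore 1 gene identifier, their TPM were added, and log2(TPM + 1) was tested with limma 3.58.1 in genes with at least 1 TPM in at least 3 libraries. Fold changes on that scale understate the change of low genes. The same tests were also run on simulated libraries that held genes of known change. Of genes given a log2 change of 0.5, edgeR called 19%, DESeq2 17%, edgeR with the replicate block 14% and limma 22.2%. Of genes given a log2 change of 1, edgeR called 96%. A gene that did not pass may therefore still differ by about 0.5 on the log2 scale, unless its interval leaves that out. Libraries held at least 33605258 counts, and the lowest count of any of the 10 genes in a library was 330.

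The 10 genes, the lists and the marker lists were chosen with earlier results of these data known, and 1 gene of the disease list is not reported here. Named were the 10 genes, the targeted gene, the paralogs in the shares and, of each list, up to 3 called genes with the smallest adjusted p; *Hnrnpa1* and *Faf1*, the remaining calls of their lists, were named after their values were seen. Alternatives were DESeq2 1.42.0, RLE and upper-quartile factors, no filter, a replicate block, a regional offset (stretches of 10 Mb with at least 15 tested genes), a pseudocount of 0.1 and leaving out each library.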

Additional observations from a re-analysis of the deposited data

How the results depend on the processing

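Of the log2 values of single genes under an alternative, 191 kept their direction and side of the threshold, 12 lost a call, 5 gained one and 14 changed sign. For the 10 genes, the count called was 2 with upper-quartile factors, beside 23.1% of all genes. Without a filter on low counts it was 2, beside 15.0% of the 30252 genes then tested, those of low count included. With the regional offset it was 0, beside 19.4%, and 2 at an unadjusted p under 0.05 in edgeR, beside 36.8% of all genes. When each library was left out it was 0 to 3, with 933 to 4712 of all genes called in the count test. In TPM, leaving out each library gave limma adjusted p-values of 0.0465 to 0.130 for *G3bp1*. *Optn* was called in TPM without KO1 alone (limma adjusted p = 0.0423). When each library was left out, the count test called 2 to 5 other stress granule genes and 1 to 6 other ALS and inclusion body myopathy genes. It called 0 to 2 autophagy genes and 1 to 6 Vcp cofactors and ubiquilins. The highest of each of these ranges was that without KO1, beside 30.6% of all genes. The share of all genes called was 6.01% without WT1. With DESeq2, 6 other stress granule genes, 2 autophagy genes and 6 of the Vcp list were called, beside 24.3% of all genes. Without a filter, 5 ALS and inclusion body myopathy genes, 4 autophagy genes and 6 of the Vcp list were called, beside 15.0% of those 30252 genes. Autophagy genes called were 0 with the regional offset (4 of 23 by the unadjusted rule). The share of *G3bp1* in its pair differed by -4.30 points in counts.

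Among the 10 genes, signs changed only in genes that were not called; of the called genes of the lists, *Stau1* was at -0.066 with the regional offset. *Ubqln2* was at -0.0051 with DESeq2, at -0.0046 without a filter and at -0.052 to 0.073 when each library was left out (-0.086 to 0.067 in TPM). *Tial1* was at -0.0023 with the regional offset and at -0.043 to 0.14 when each library was left out, and *Sqstm1* at 0.078 with the offset. In TPM, leaving out each library gave -0.056 to 0.52 for *Tia1* and -0.051 to 0.15 for *Vcp*. Apart from the effect of fewer libraries, the cause was not tested.

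The replicate numbers did not pair the samples: the correlations of same-numbered libraries were 0.16, -0.12 and -0.05. With the replicate number as a block, edgeR called 2520 genes (17% of all genes tested), 0 of the 10 genes and 0 autophagy genes. At an unadjusted p under 0.05 there were 3 of the 10 genes and 4 of 23 autophagy genes, beside 35.9% of all genes. With that block, *G3bp1* had an adjusted p of 0.0573 in edgeR and, in TPM, of 0.0625 in limma. *Optn* had an edgeR adjusted p of 0.0501 with it.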
